A study of Saccharomyces cerevisiae with 8 samples.

Results

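Yeast labelled set2∆sir4∆, a name for the loss of SET2 and SIR4, were compared with yeast labelled set2∆, to ask which transcript levels of cells without Set2 differ once SIR4 is deleted as well. Both labels name the SET2 deletion, so the difference between them follows the SIR4 label. Each group was measured on 4 two-colour microarrays of open reading frames (ORFs), against wild-type RNA labelled with the other dye on the same array, and these 8 arrays make up the whole series. All Saccharomyces cerevisiae cells had been grown in log phase at 30 °C in YPAD, a rich medium with adenine. The strain background, the mating type and the number of clones behind each group are not given in the sources used here. An ORF was compared when it had a value on at least 3 of the 4 arrays in each group, which held for 4554 of 6267 ORFs. The quantity compared is the mean log2(mutant / wild type) of the set2∆sir4∆ arrays minus that of the set2∆ arrays, with 1 common term for dye orientation. A difference is given ± its SE from limma, and a gene is called higher or lower where its Benjamini-Hochberg adjusted p over the 4554 ORFs is under 0.05.

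Sir4 is a subunit of the Sir complex, which binds deacetylated histone tails and keeps genes silent at the mating cassettes HML and HMR and next to telomeres. HML and HMR hold unexpressed copies of the alpha and a genes of the mating type locus, and when silencing fails a haploid cell makes both sets of regulators. Alpha2 together with Mcm1 is known to repress a-specific genes, and a1 with alpha2 to repress haploid-specific genes, as in a diploid. Set2 methylates a lysine of histone H3 behind elongating RNA polymerase II.

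The arrays held 4846 to 5577 values in set2∆sir4∆ and 4613 to 4926 in set2∆, and array medians lay between -0.09 and 0.05. Single values below stand in array order, 1 to 4, and a missing value is left out. On set2∆sir4∆ arrays 1 and 4 and set2∆ arrays 1 and 2 the mutant was in Cy3, and on the other 4 in Cy5. Values in the 2 dye orientations differed with an SD over ORFs of 0.252 in set2∆sir4∆ and 0.583 in set2∆, so differences within each orientation are given beside the gene groups. Arrays of set2∆ in opposite orientations correlated at only -0.087 to 0.309, against 0.693 to 0.754 within an orientation. Across orientations the set2∆sir4∆ arrays correlated at 0.704 to 0.822. A set2∆ mean placed near, above or below wild type can thus average arrays that disagree. The deleted genes were read first. The SET2 spot stood at -1.64, -1.72, -1.94 and -1.48 on the set2∆sir4∆ arrays, and at -3.24 and -2.61 on the set2∆ arrays 3 and 4. The SIR4 spot stood at 0.04, -0.17, -0.21 and 0.05 on the set2∆sir4∆ arrays and had no value in set2∆, so it did not bear out the SIR4 deletion. The labels do not say which stretch of the gene is on the spot, and a spot next to the deleted stretch would check nothing. Every direction below is therefore drawn between arrays labelled set2∆sir4∆ and arrays labelled set2∆. Nothing in the labels says that the arrays of a group came from separate cultures, so p-values reflect only array-to-array spread, possibly technical.

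The arrays labelled set2∆sir4∆ differed from the set2∆ arrays in 123 ORFs, which is 2.7% of those compared. Of these, 45 were higher (0.988%) and 78 lower (1.71%). The lower genes held all 6 a-specific and 9 of 13 haploid-specific genes compared, and were led by the a-factor gene MFA2 at -6.59 ± 0.30, a 96.1-fold difference. The higher genes lay mostly near chromosome ends, led by the glycerophosphoinositol permease GIT1 at 2.14 ± 0.16, a 4.41-fold difference. At least 2-fold differences were called for 13 higher and 39 lower genes, and at least 4-fold differences for 1 higher and 14 lower genes. Over all ORFs compared the median difference was -0.01, with an SD of 0.36 and a median SE of 0.15. Of the 4554 ORFs, 662 had an unadjusted p under 0.05 in limma, the background for the unadjusted counts given below. The values of the groups did not overlap for 379 ORFs (8.32%), among them 119 of the 123 called. In the plot of mean ratios, the lower genes with the largest differences form a column below the origin. There set2∆ is mostly near wild type and set2∆sir4∆ far below it. Of all 78 lower genes, 39 reached 2-fold, and 47 had a mean above wild type in set2∆.

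**Figure D1:**
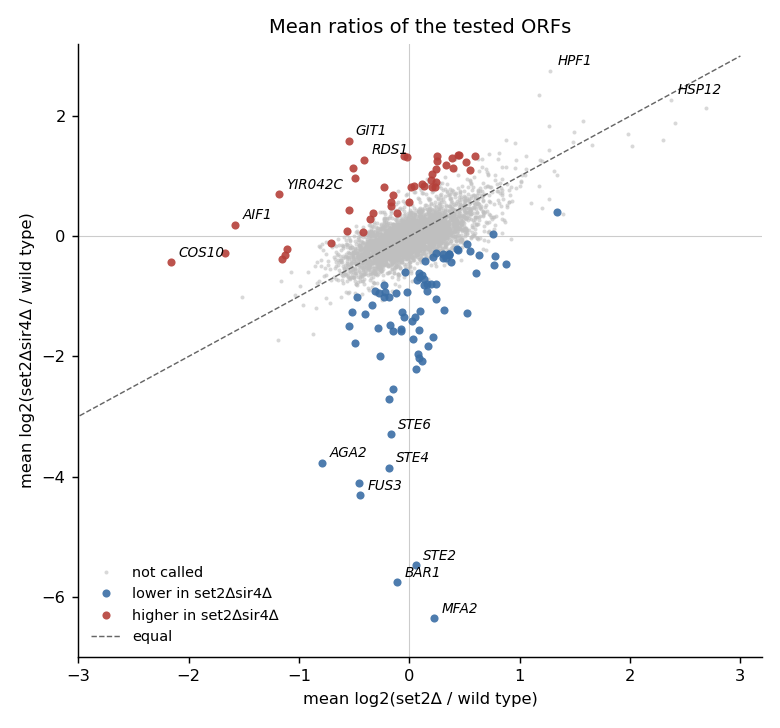
Mean log2(set2∆sir4∆ / wild type) on the vertical axis against mean log2(set2∆ / wild type) on the horizontal axis, 1 point for each of the 4554 ORFs compared, with the line of equal means dashed. The 78 lower genes (blue) reach a mean of -6.36 in set2∆sir4∆ for MFA2, and the 45 higher genes (red) lie above the line, many of them on its left side.

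Many of these calls depended on single arrays. Without set2∆sir4∆ array 1, 2 or 4, 16, 27 and 17 genes were called higher, and without set2∆ array 4, 23 were. Without set2∆sir4∆ array 1, 48 genes were called lower. All 123 called differences kept their sign in each of the 8 fits that left out 1 array, and 61 kept the call in all 8, of which 15 were higher and 46 lower. A gene is described below as called without any 1 array where it is among those 61.

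All 6 a-specific genes compared were lower in set2∆sir4∆, with a median difference of -4.33 against -0.01 over all ORFs. Medians within an orientation, here and below, cover only the members with a value there. MFA2 had no difference within Cy3 and ASG7 none within Cy5. The 4 a-specific genes with both were close, with -5.37 within Cy3 and -5.69 within Cy5 for STE2, -5.70 and -5.60 for BAR1, -3.01 and -3.24 for STE6, and -3.0 and -2.97 for AGA2. MFA2, an a-factor precursor gene, stood at -6.35, -5.74 and -7.10 in set2∆sir4∆, against 0.05, 0.69, 0.23 and -0.09 in set2∆. BAR1, the secreted protease that degrades alpha-factor, stood at -5.96, -5.39, -5.93 and -5.76 in set2∆sir4∆, against -0.24, -0.08, -0.09 and -0.03 in set2∆. In both genes every set2∆sir4∆ array with a value was far below every set2∆ array, and the set2∆ arrays lay close to wild type. The difference of BAR1 was -5.65 ± 0.14 (50.2-fold, adjusted p = 3.95e-09). STE2, the alpha-factor receptor, stood at -5.85, -4.91, -5.35 and -5.79 in set2∆sir4∆, against -0.89, -0.00, 0.66 and 0.47 in set2∆. The set2∆ values of STE2 lay below 0 in Cy3 and above it in Cy5, a spread small beside the difference of -5.53 ± 0.19 (46.3-fold, adjusted p = 6.65e-08).

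The other a-specific genes differed less. STE6, which exports a-factor, stood at -3.46, -3.18, -3.22 and -3.30 in set2∆sir4∆, against -0.59, -0.15, 0.19 and -0.11 in set2∆ (difference -3.13 ± 0.14). AGA2, the binding subunit of a-agglutinin, stood at -3.71, -3.53, -4.22 and -3.62 in set2∆sir4∆, against -0.84, -0.50, -0.82 and -1.0 in set2∆ (difference -2.98 ± 0.16). ASG7, an a-specific regulator of signalling, had a difference of -1.28 ± 0.14. AGA2 and ASG7 were below wild type on every array with a value in both groups and further below in set2∆sir4∆. All 6 were called without any 1 array. MFA1, the second a-factor gene, had too few values to be compared. It stood at -1.82 and -1.81 on set2∆sir4∆ arrays 2 and 3, both Cy5, against 0.62 and 1.14 on the Cy3 and -1.38 and -0.77 on the Cy5 arrays of set2∆. In bulk RNA, fewer cells that express a gene and less of its RNA per cell cannot be told apart.

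Of 13 haploid-specific genes compared, 9 were lower and 0 higher, with a median difference of -1.44 (-1.50 within Cy3 and -1.41 within Cy5). The largest differences were in the signalling pathway that pheromone receptors feed. The G protein alpha subunit GPA1 stood at -4.44, -4.05 and -4.08 in set2∆sir4∆, against -0.86, -0.71, -0.06 and -0.20 in set2∆, a difference of -3.65 ± 0.16 (12.6-fold). The beta subunit STE4 stood at -3.78, -3.80, -3.99 and -3.84 in set2∆sir4∆, against -0.08, -0.58, -0.05 and -0.02 in set2∆, a difference of -3.67 ± 0.15 (12.7-fold). Both subunits lay near wild type in set2∆ and more than 3 log2 units lower on each set2∆sir4∆ array with a value. The gamma subunit STE18 stood at -0.86, -1.08, -1.10 and -0.80 in set2∆sir4∆, against -0.14, -0.76, -0.03 and -0.27 in set2∆. Its groups did not overlap, but its difference of -0.66 ± 0.17 did not pass (adjusted p = 0.0821).

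Below the G protein, the MAP kinase FUS3 stood at -3.18, -4.45, -4.58 and -5.04 in set2∆sir4∆, against 0.14, 0.35, -1.35 and -0.93 in set2∆. FUS3 varied more than the other genes of the group in both strains, and its difference was -3.87 ± 0.35 (14.6-fold). The scaffold STE5 stood at -1.42, -1.49, -1.41 and -1.34 in set2∆sir4∆, against 0.13, 0.44, -0.39 and -0.07 in set2∆ (difference -1.44 ± 0.14). FAR1, which arrests the cell cycle in response to pheromone, had a difference of -2.52 ± 0.18. The transcription factor STE12 had -0.70 ± 0.15 (adjusted p = 0.0392), a call kept in only 2 of the 8 fits that left out 1 array, with an adjusted p of up to 0.162. The kinase STE20 (-0.24 ± 0.16) and the repressor DIG2 (0.16 ± 0.16) did not pass.

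Haploid-specific genes outside signalling were lower too. NEJ1, a factor of DNA end joining, stood at -2.58, -2.41, -2.49 and -2.67 in set2∆sir4∆, against 0.00, -0.22 and -0.21 in set2∆ (difference -2.39 ± 0.14, 5.24-fold). AXL1, a protease of a-factor maturation and axial budding, had a difference of -1.99 ± 0.17. RDH54, a recombination helicase, had -1.20 ± 0.12. NEJ1, AXL1 and RDH54 kept their calls without any 1 array, as did FUS3, STE4, GPA1, FAR1 and STE5. RME1, a repressor of meiosis, had values on only 2 arrays, at -2.95 and -2.05 on set2∆sir4∆ arrays 3 and 4. HO, the switching endonuclease, had no value.

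Of 17 genes known to be induced by pheromone, 7 were lower and 0 higher, with a median difference of -0.48 (-0.70 within Cy3 and -0.46 within Cy5). AGA1, the anchor subunit of a-agglutinin, stood at -2.12, -2.0, -2.08 and -2.09 in set2∆sir4∆, against -0.17, 0.76, -0.28 and 0.15 in set2∆. Its 4 set2∆sir4∆ values were nearly equal, and the difference was -2.19 ± 0.20 (4.55-fold). FIG1, a membrane protein of mating, had a difference of -1.79 ± 0.22, the transcription factor KAR4 -1.72 ± 0.23 and the cell surface protein PRM5 -1.55 ± 0.17. SST2, which turns off Gpa1 signalling, had -1.42 ± 0.16, and GIC2, an effector of Cdc42, -0.96 ± 0.16. These 6 were called without any 1 array. The phosphatase MSG5 (-0.66 ± 0.14, adjusted p = 0.0465) was not called in any of the 8 fits that left out 1 array, with an adjusted p of up to 0.188. FUS1, a cell fusion protein that is also on the haploid-specific list, had -0.45 ± 0.16 and PRM1 -0.73 ± 0.19, and neither passed (adjusted p = 0.204 and 0.0877). The plot of mating genes on each array shows the gap between the groups for 20 of these genes.

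**Figure D2:**
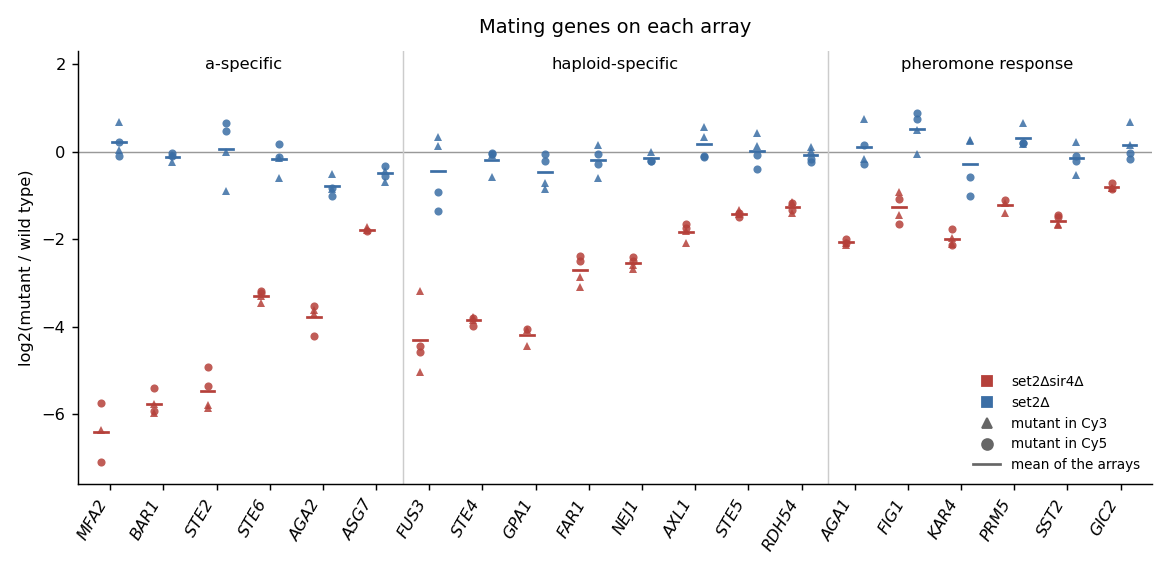
log2(mutant / wild type) on each array for 20 genes called lower, with set2∆sir4∆ (red) left of set2∆ (blue) for each gene, triangles for the mutant in Cy3, circles for Cy5 and bars for the mean of the arrays. In every gene shown, all set2∆sir4∆ values lie below all set2∆ values, from -7.10 for MFA2 to -0.71 for GIC2. This follows from showing genes called lower, as the groups did not overlap in any of the 78.

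The mating cassette genes went the other way by small amounts. HMLALPHA2 stood at 0.84, 0.99, 0.52 and 0.60 in set2∆sir4∆, against 0.83, 0.45, -0.09 and -0.34 in set2∆, and MATALPHA2 at 0.74, 0.97, 0.51 and 0.59 in set2∆sir4∆, against -0.18, 0.53, -0.06 and -0.37 in set2∆. HMRA2 stood at 0.52, 0.77, 0.18 and 0.74 in set2∆sir4∆, against 0.10, 0.21, -0.00 and -0.48 in set2∆. In all 3 genes the groups overlapped, and the differences of 0.53 ± 0.20, 0.72 ± 0.19 and 0.59 ± 0.17 did not pass (adjusted p = 0.259, 0.0877 and 0.111). Their median was 0.47 within Cy3 and 0.95 within Cy5. The alpha1 spots were measured almost only in set2∆sir4∆. MATALPHA1 stood at 1.19, 0.75, 1.02 and 1.78 in set2∆sir4∆, and HMLALPHA1 at 0.82, 0.65, 0.70 and 1.09 in set2∆sir4∆, against -0.14 on set2∆ array 4. HMRA1 had no value on any array. The loci carry the same alpha and a2 sequence, so a spot does not tell which of them was transcribed.

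Genes of other cell types did not pass. Of the alpha-specific genes, which alpha1 activates, the alpha-factor gene MF(ALPHA)2 differed by -0.26 ± 0.15 and the alpha-agglutinin gene SAG1 by -0.21 ± 0.15. STE3, the a-factor receptor, stood at -0.92, -1.69 and -0.57 in set2∆sir4∆ and had no value in set2∆, and MF(ALPHA)1 had none at all. Of 9 early meiosis genes, 0 were called and 0 had an unadjusted p under 0.05 in limma, with a median of 0.22 (0.27 within Cy3 and 0.18 within Cy5). The meiotic inducers IME1 and IME2 differed by 0.23 ± 0.13 and 0.31 ± 0.14.

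Further genes outside the mating lists were lower in set2∆sir4∆. Apart from NDJ1 and the list members, these genes and the neighbouring genes that follow were chosen after their values were seen. STE14, the methyltransferase of a-factor maturation, stood at -1.85, -1.49, -1.60 and -1.87 in set2∆sir4∆, against -0.13, 0.31, -0.12 and 0.06 in set2∆ (difference -1.73 ± 0.15, 3.33-fold). NDJ1, a meiotic telomere protein, stood at -2.06, -1.95 and -2.63 in set2∆sir4∆, against -0.08, -0.03, 0.06 and 0.26 in set2∆ (difference -2.27 ± 0.19). In both genes set2∆ was near wild type and the groups lay well apart. GAS2, a glucanosyltransferase of the spore wall, had a difference of -1.65 ± 0.14, NFG1, a regulator of filamentous growth, -1.40 ± 0.14, and DSS1, a mitochondrial exoribonuclease, -1.29 ± 0.12. AMN1, which acts against mitotic exit in daughter cells, had -1.88 ± 0.28, and the chitin synthase CHS1 -0.76 ± 0.12. All 7 were called without any 1 array.

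Some lower genes were neighbours. Of 121 called genes with a place on a chromosome, 21 lay next to another called gene, in 12 pairs. In 8 pairs both genes were lower, in 2 both were higher and in 2 the directions were opposite. Over all ORFs compared 2.7% were called, and the share of such pairs among genes picked anywhere was not worked out. Both opposite pairs, SNO3 with SNZ3, and SNO2 with SNZ2 lie at copied chromosome ends described below. They are not separate observations. MPF1, next to MFA2 on chromosome XIV, stood at -1.96, -1.99, -2.31 and -1.87 in set2∆sir4∆, against 0.05, -0.12, 0.32 and 0.09 in set2∆. GYP8, a GTPase-activating protein next to STE2 on chromosome VI, had a difference of -1.30 ± 0.14, and ICS2, next to AMN1 on chromosome II, -2.03 ± 0.19. The MPF1 difference of -2.11 ± 0.14 and those of GYP8 and ICS2 were called without any 1 array. THI22, next to AXL1 on chromosome XVI, had -0.80 ± 0.17, a call kept in 1 of 8 such fits with an adjusted p of up to 0.135. GAL10 and GAL7, adjacent enzymes of galactose use on chromosome II, had -1.21 ± 0.19 and -0.81 ± 0.14. GAL7 lost its call without set2∆ array 4, set2∆sir4∆ array 3 or set2∆sir4∆ array 4 (adjusted p up to 0.111), and GAL1, on the other side of GAL10, had 0.18 ± 0.14.

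Most of the genes higher in set2∆sir4∆ lay near chromosome ends. Places were counted in protein-coding genes from the nearest end. Of 43 higher genes with a place, 30 (69.8%) were among the 15 outermost genes of an end, against 11 of 78 lower genes (14.1%) and 7.26% of all ORFs compared. Of the 96 genes at places 1 to 5, 23 (24.0%) were higher and 2 lower, with a median difference of 0.48 (0.54 within Cy3 and 0.41 within Cy5). At places 6 to 10, 5 of 120 were higher and 4 lower (median 0.11), and at places 11 to 15, 2 of 112 were higher and 5 lower (median -0.06). At places 16 to 30 the counts were 4 higher and 5 lower of 370 (median -0.01), and farther in 9 higher and 62 lower of 3822 (median -0.02). The median was thus above the rest at places 1 to 5, as the plot of differences by place shows. At places 6 to 10 it was 0.26 within Cy3 and -0.02 within Cy5. Leaving out the COS, PAU, DAN, TIR, YRF1, FLO, THI5 and HXT families, 19 of 291 genes within 15 places were higher and 11 lower. The count of 30 fell to 14 without set2∆sir4∆ array 1 or 4, and to 19 without set2∆sir4∆ array 2 or set2∆ array 4.

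**Figure D3:**
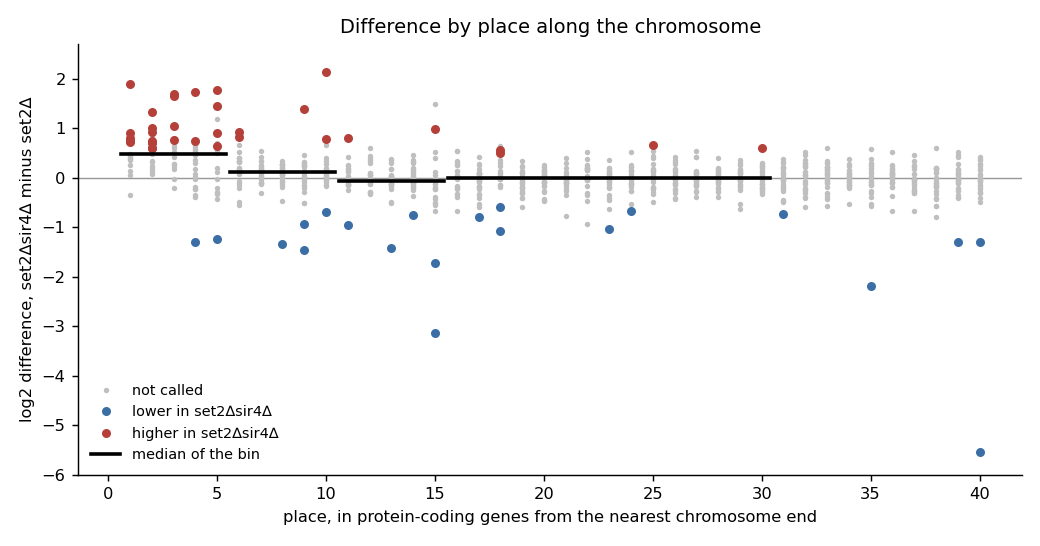
log2 difference, set2∆sir4∆ minus set2∆, against place in protein-coding genes from the nearest chromosome end (1 is the outermost gene), for genes at places 1 to 40, with the median of each bin as a bar. Red points above 0 crowd at places 1 to 5, where the median was 0.48, and lower genes (blue) are scattered over all places.

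Near the right end of chromosome III, beside HMR, GIT1 at place 10 stood at 1.84, 1.35, 1.49 and 1.69 in set2∆sir4∆, against -0.72, -0.51 and -0.48 in set2∆. RDS1, a zinc cluster transcription factor at place 3 of that end, stood at 1.30, 1.47, 1.39 and 0.93 in set2∆sir4∆, against -0.32, -0.49, -0.37 and -0.46 in set2∆ (difference 1.68 ± 0.13). Both were above wild type on every set2∆sir4∆ array and below it on every set2∆ array with a value. On the right end of chromosome IX, YIR042C at place 1 stood at 0.74, 0.68, 0.77 and 0.60 in set2∆sir4∆, against -1.14, -0.97 and -1.44 in set2∆ (difference 1.88 ± 0.15). YPS6, a cell surface aspartyl protease at place 3, stood at 1.30, 1.23, 0.81 and 1.22 in set2∆sir4∆, against -0.91, -0.55, -0.03 and -0.53 in set2∆ (difference 1.65 ± 0.19). These also lay on opposite sides of wild type, with no overlap between the groups.

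On the right end of chromosome XIV, 2 adjacent genes were higher in set2∆sir4∆. AIF1, a mitochondrial cell death effector at place 5, stood at 0.22, 0.15, 0.30 and 0.10 in set2∆sir4∆, against -1.76, -1.54, -1.46 and -1.57 in set2∆ (difference 1.77 ± 0.12). COS10 at place 4 stood at -0.37, -0.52, -0.54 and -0.29 in set2∆sir4∆, against -2.93, -1.51 and -1.85 in set2∆ (difference 1.73 ± 0.27, and 1.15 without set2∆ array 1). AIF1 was close to wild type in set2∆sir4∆ and well below it in set2∆, whereas COS10 stayed below wild type in both groups. YEL073C, at place 5 on the left of chromosome V, stood at 1.13, 1.05, 1.06 and 0.62 in set2∆sir4∆, against -0.48, -0.72 and -0.36 in set2∆ (difference 1.45 ± 0.16). YHR214W at place 9 on the right of chromosome VIII had a difference of 1.38 ± 0.18, and AAD15, a putative aryl-alcohol dehydrogenase chosen after its values were seen, 1.0 ± 0.15. YIL175W on chromosome IX, an ORF with no place among the protein-coding genes, had 1.39 ± 0.13. These genes and GIT1, RDS1, YIR042C and YPS6 were called without any 1 array. YAR068W had 1.34 ± 0.25 and lost its call without set2∆sir4∆ array 4 (adjusted p = 0.0564). YIR043C, another ORF with no place, had 1.08 ± 0.20, a call kept in 5 of the 8 fits that left out 1 array (adjusted p up to 0.0754). YBL111C had 1.05 ± 0.23 (adjusted p = 0.0498), a call kept in 1 of the 8 fits that left out 1 array, with an adjusted p of up to 0.203.

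**Figure D4:**
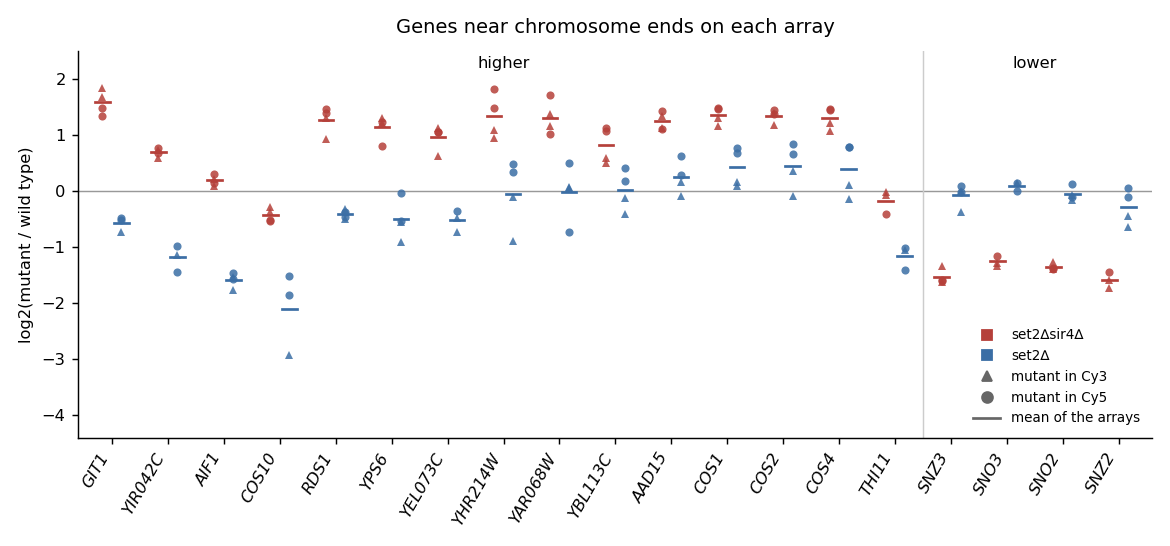
log2(mutant / wild type) on each array for 19 genes among the 15 outermost of a chromosome end, 15 higher and 4 lower in set2∆sir4∆, with set2∆sir4∆ (red) left of set2∆ (blue), triangles for the mutant in Cy3, circles for Cy5 and bars for the mean of the arrays. The groups do not overlap in any gene shown, which follows largely from showing called genes, as 119 of the 123 called did not overlap. GIT1, YIR042C, AIF1, RDS1, YPS6 and YEL073C lie above 0 in set2∆sir4∆ and below 0 in set2∆.

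The COS family, similar membrane proteins encoded next to telomeres, had 7 of 10 genes higher and 0 lower, with a median difference of 0.73 (0.84 within Cy3 and 0.70 within Cy5). COS1 stood at 1.31, 1.46, 1.48 and 1.16 in set2∆sir4∆, against 0.10, 0.17, 0.69 and 0.78 in set2∆. Its groups did not overlap, and set2∆ was itself above wild type, more so in Cy5. COS1 (0.91 ± 0.12), COS4 (0.91 ± 0.14), COS2 (0.90 ± 0.15) and COS10 were called without any 1 array. COS8 (0.74 ± 0.16), COS3 (0.73 ± 0.15) and COS5 (0.72 ± 0.14) kept their calls in 1, 3 and 3 of the 8 fits, with adjusted p up to 0.154, 0.0885 and 0.0934. Without set2∆sir4∆ array 1, 2, 3 or 4 the count fell to 4. COS9 (0.57 ± 0.18), COS7 (0.48 ± 0.35) and COS6 (0.31 ± 0.25) did not pass, and COS12 and COS111 had too few values in set2∆ to be compared. Spots of similar members can share signal, so the 7 calls are not separate observations.

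The PAU, DAN and TIR list and the YRF1 list gave 1 call each, where 0.988% of all ORFs compared were higher. Differences were above 0 for 16 of 18 and 3 of 3 of their members. Of 18 PAU, DAN and TIR genes, which encode cell wall proteins, 1 was higher and 0 lower, with a median of 0.40 (0.61 within Cy3 and 0.25 within Cy5), and 12 had an unadjusted p under 0.05, all higher. That 1 was PAU2 at 0.60 ± 0.12, a call kept in 1 of the 8 fits that left out 1 array, with an adjusted p of up to 0.132. Of 3 YRF1 genes, which encode helicases of telomeric Y' elements, YRF1-4 was higher (0.59 ± 0.13, adjusted p = 0.0489), but in none of the 8 fits that left out 1 array (adjusted p up to 0.191). YBL113C, at place 1 on the left of chromosome II and chosen after its values were seen, had 0.81 ± 0.12 and was called without any 1 array. The related cell wall protein genes HPF1 and CSS1 had larger differences, 1.48 ± 0.37 and 1.19 ± 0.34, with a spread that left them short of a call (adjusted p = 0.0723 and 0.122). HPF1 stood at 2.33, 3.45, 2.36 and 2.88 in set2∆sir4∆, against 0.91, -0.24, 2.22 and 2.22 in set2∆, where its Cy3 and Cy5 arrays lay far apart.

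A pair of chromosome ends held lower and higher genes next to each other. On the left of chromosome VI, SNO3 and SNZ3 of vitamin B6 synthesis, at places 8 and 9, were lower, and THI5 of thiamine synthesis, at place 10, was higher. The left of chromosome XIV had the same order, with SNO2 and SNZ2 lower at places 4 and 5 and THI12 higher at place 6. The genes of these ends are copies of each other and their spots can share signal. The ends are therefore not separate observations. SNZ3 stood at -1.62, -1.58, -1.61 and -1.34 in set2∆sir4∆, against 0.00, -0.37, 0.10 and -0.02 in set2∆ (difference -1.47 ± 0.14). SNO2 stood at -1.39, -1.39, -1.37 and -1.26 in set2∆sir4∆, against -0.07, -0.16, 0.13 and -0.10 in set2∆ (difference -1.30 ± 0.12). Both were near wild type in set2∆ and well below it in set2∆sir4∆, as were SNO3 (difference -1.34 ± 0.15) and SNZ2 (-1.24 ± 0.14), and all 4 were called without any 1 array.

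The thiamine genes THI5 and THI12 beside them, and THI11 near the right end of chromosome X, went the other way. THI11 stood at -0.07, -0.41 and -0.02 in set2∆sir4∆, against -1.05, -1.01 and -1.40 in set2∆ (difference 0.90 ± 0.17). THI12 (0.81 ± 0.17) and THI5 (0.77 ± 0.16) were similar, and all 3 lay below wild type in set2∆ and nearer to it in set2∆sir4∆. THI11, THI12 and THI5 are nearly identical, so their spots cannot be told apart, and their calls held in 3, 3 and 2 of the 8 fits that left out 1 array (adjusted p up to 0.189, 0.214 and 0.297). SNZ1 and SNO1, the copies of the B6 genes away from the ends, had -0.31 ± 0.11 and -0.15 ± 0.15 and did not pass (adjusted p = 0.201 and 0.675). Of 21 thiamine and vitamin B6 genes compared, 3 were higher and 5 lower, and their median difference was -0.13 (-0.11 within Cy3 and -0.17 within Cy5).

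The place of each called gene relative to wild type was read from the 2 group means, each taken against the wild-type RNA of its own arrays. A call selects for a gap between these means, so the counts below follow in part from that selection. They were made on called genes only, with no share over all ORFs beside them. Of the 45 higher genes, 39 had a mean above wild type in set2∆sir4∆ and 25 a mean below wild type in set2∆. For 8 of them every set2∆sir4∆ array with a value was above wild type and every set2∆ array with a value below it. These were GIT1, RDS1, YIR042C, YPS6, YEL073C, AIF1, MPH2 and DAL1. Of these, GIT1, YIR042C and YEL073C had only 3 values in set2∆. MPH2, a maltose permease gene, had a difference of 0.72 ± 0.13 and lost its call without set2∆sir4∆ array 1 (adjusted p = 0.0661). DAL1, allantoinase, had 0.99 ± 0.18 and lost its call without set2∆ array 1, set2∆sir4∆ array 1 or set2∆sir4∆ array 4 (adjusted p up to 0.0748). All 8 were among the 15 outermost genes of an end. Of the 78 lower genes, 76 had a mean below wild type in set2∆sir4∆ and 47 a mean above wild type in set2∆. For 20 of the 78, every array with a value followed that order. Not below wild type on average in set2∆sir4∆ were the vacuolar permease gene ATG22 and PCA1, a cadmium exporter. PCA1 stood at 0.57, 0.46, -0.09 and 0.66 in set2∆sir4∆, against 1.5, 1.58 and 1.16 in set2∆ (difference -0.94 ± 0.16). PCA1 lost its call without set2∆ array 4 or set2∆sir4∆ array 1 (adjusted p up to 0.117).

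Most gene groups that are known to respond to growth and stress gave no or 1 call. None of 24 general stress genes was called higher and 1 was called lower. At an unadjusted p under 0.05 in limma, 5 were higher and 1 lower. The list median was 0.08, and it was 0.31 within Cy3 and -0.12 within Cy5. Both groups were above wild type on this list, with medians of 0.98 in set2∆sir4∆ and 0.84 in set2∆. The small heat shock gene HSP12, for example, stood at 2.22, 2.45, 1.94 and 2.47 in set2∆sir4∆, against 3.0, 2.58, 2.48 and 1.42 in set2∆, with overlapping groups and a difference of -0.10 ± 0.25. The lower gene was the small heat shock gene HSP26, at -1.67, -1.54, -1.85 and -1.22 in set2∆sir4∆, against 0.14, 0.27, 0.28 and -1.0 in set2∆. Its set2∆ array 4 lay near the set2∆sir4∆ values, and the difference of -1.50 ± 0.24 was called without any 1 array. Of 20 heat shock chaperones, 1 was called higher and 0 lower, with a median of 0.25 (0.37 within Cy3 and 0.32 within Cy5). The called gene was the Hsp90 co-chaperone STI1 (0.66 ± 0.14), a call kept in 2 of the 8 fits that left out 1 array (adjusted p up to 0.132). Of the 20 differences, 17 were above 0, and 8 had an unadjusted p under 0.05 in limma, all higher. Over all ORFs compared, 662 of 4554 had such a p in either direction.

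Respiration (30 genes, median -0.04) and ribosome biogenesis (38 genes, median -0.06) gave 0 calls, with 0 and 5 genes at an unadjusted p under 0.05 in limma. Over all ORFs compared this held for 662 of 4554. Core histones gave 0 calls of 10, with a median of -0.19, which was -0.42 within Cy3 and 0.15 within Cy5, and 1 gene at an unadjusted p under 0.05. Of 14 Sir and Set2 pathway genes, 0 were called and 1 had an unadjusted p under 0.05, and SIR2 differed by -0.28 ± 0.14. Hexose transporters gave 0 calls of 13, with 8 at an unadjusted p under 0.05, of which 3 were higher and 5 lower. HXT7 stood at 0.20, 0.50, 0.11 and 0.67 in set2∆sir4∆, against 0.64, 1.08, 1.54 and 2.33 in set2∆, a difference of -1.03 ± 0.27 that did not pass (adjusted p = 0.0892). Phosphate starvation genes gave 1 call of 15, GIT1, against a list median of 0.06. Iron genes gave 1 call of 16 (FIT2, -0.76 ± 0.17), amino acid synthesis genes under Gcn4 1 of 30 (ARG4, -0.55 ± 0.12) and cryptic internal start genes 1 of 8 (PCA1). FIT2 and ARG4 kept their calls in 2 and 1 of the 8 fits that left out 1 array (adjusted p up to 0.112 and 0.144). Methionine and sulphate genes (20), auxotrophic markers (4) and flocculin and cell wall genes near ends (5) gave 0 calls, with 2, 2 and 3 genes at an unadjusted p under 0.05 in limma. The plot of list members shows most of these lists beside the mating lists.

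**Figure D5:**
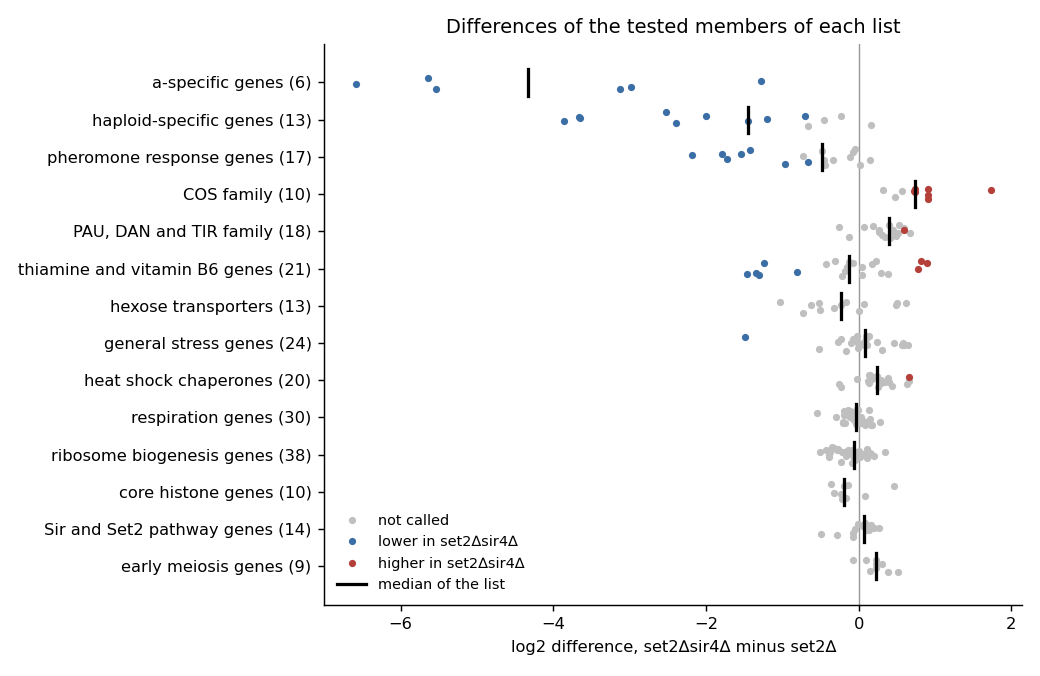
log2 difference, set2∆sir4∆ minus set2∆, of each member compared in 14 gene lists (number of members in parentheses), with called genes coloured by direction and the list median as a bar. The a-specific list lies wholly below 0 with a median of -4.33 and the COS family wholly above it with a median of 0.73, while most other lists lie close to 0.

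ORFs with values in 1 group alone could not be compared. In set2∆sir4∆, 839 ORFs had 3 or 4 values with 0 or 1 in set2∆, and 127 ORFs had the reverse. Of those with a place, 10.1% of the first set and 14.4% of the second were among the 15 outermost genes, against 8.02% of all ORFs with a place. The mean log2(set2∆sir4∆ / wild type) of the 839 had a median of 0.05, and 25 of them were at or above 1 and 18 at or below -1. At or above 1 were 5 of 50 among the 15 outermost and 4 of 445 at other places. The genes named from these sets were chosen after their values were seen. COS12, at place 1 on the left of chromosome VII, stood at 3.32, 3.10, 3.23 and 3.43 in set2∆sir4∆. YCL074W, an ORF with no place among the protein-coding genes, stood at 3.44, 2.45 and 3.47, and YCL076W at 2.08, 1.49, 1.54 and 2.2 in set2∆sir4∆. TEC1, a transcription factor of filamentous growth, stood at -1.90, -2.34, -2.24 and -2.23, and IME4, an RNA methyltransferase gene, at -1.15, -1.36 and -1.72 in set2∆sir4∆. None of these had a value in set2∆, so whether they differ between the groups was not tested.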

How the data were processed

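RNA of set2∆sir4∆ and set2∆ cells was measured on 8 two-colour ORF arrays, 4 for each group, with the mutant in each dye on 2 arrays of a group. Per the labels, polyA RNA was reverse-transcribed and labelled with Cy5 and Cy3. The deposited values are log2 ratios of mutant over wild type, with array medians between -0.09 and 0.05. Scanner, background correction, normalization and spot filters are not given in the sources used here, spot intensities were not used, and precision is limited by the number of arrays. Base and direction were checked on the spacing of the values. As powers of 2 with Cy5 over Cy3, 99.5 to 100% of values lay on an even grid within a tolerance of 0.02, against at most 4.5% in the opposite direction and 7.2% for natural logarithms. Ratios of the arrays whose mutant was in Cy3 had therefore been turned by the authors, and no further scaling was applied.

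ORFs with at least 3 of 4 values in each group (4554) were fitted with limma 3.58.1 (lmFit, eBayes, R 4.3.3), with the group difference and 1 common dye term as coefficients. There were 5.48 prior degrees of freedom, and 5 residual ones for an ORF with all 8 values. P-values were adjusted by Benjamini-Hochberg over all 4554 ORFs at a limit of 0.05. Wild-type spread cannot enter the test, since wild type was present only as the other channel. On 10 simulated data sets of 4554 genes, 200 of them changed, differences of 1.25, 1.5, 2 and 4-fold were called in 3.2%, 33.8%, 90% and 99.8% of cases, and 4.06% of calls were false. The simulation had 1 dye effect common to both groups and independent noise, equal on all arrays of a gene. In the data the dye effect differed between the groups, so these shares need not hold for the calls above. Names and gene order came from a RefSeq table, which named 5856 of the 6267 ORFs. The array names no build, so places were counted in genes.

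The groups, gene lists and tests were chosen with earlier results of these data known. Named by rule were the 12 highest and 12 lowest called differences with groups that do not overlap, all measured members of the deleted, cassette, haploid-specific, a-specific and alpha-specific lists, from each other list up to 4 called members with the smallest p, and 10 from the 15 outermost genes of the ends. Other list members and genes named were chosen after their values were seen. Alternatives were median-centred and quantile-normalized arrays, no dye term or 1 for each group, each orientation alone and other filters on missing values. A replicate block, array weights, stricter limits and other widths of the end regions were also used. So were fits without the end families listed above and without each array. The use of these alternatives on list counts was chosen after seeing the data. Deviations of same-numbered arrays correlated at 0.207 and 0.126 where the dye was the same and at -0.16 and -0.206 where it was opposite, and at -0.069 to 0.071 with the dye effect removed, so array numbers do not pair the groups. A planned count of promoter motifs was not made, since promoter sequences were not used here.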

Additional observations from a re-analysis of the deposited data

Results flagged for a closer look

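In 198 sets of 4 arrays of a named gene, 7 had 1 array far from the other 3 (a gap above 0.829 of the whole range). Chance gives about 1 in 20, so this is no more than chance would give. On the set2∆sir4∆ arrays these were YEL073C on array 4 at 0.62, with the others between 1.05 and 1.13, and YPS6 on array 3 at 0.81, with the others between 1.22 and 1.30. SNZ3 on set2∆sir4∆ array 4 was at -1.34, with the others between -1.62 and -1.58. On the set2∆ arrays, HSP26 on array 4 was at -1.0, with the others between 0.14 and 0.28, and STE12 on array 1 at -0.59, with the others between -0.13 and -0.06. PRM5 on set2∆ array 1 was at 0.67, with the others between 0.17 and 0.21, and STE4 on set2∆ array 2 at -0.58, with the others between -0.08 and -0.02. Of these 7 genes, all but STE12 kept their call without any 1 array. What set these values apart was not tested.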

How the results depend on the processing

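No called difference changed sign under any alternative in which it could be fitted. Of 1948 alternative values of 112 named genes, 1682 stayed on their side of the limit, 213 lost the call and 53 gained one. The 45 higher genes became 69 with quantile normalization, 25 with no dye term, 108 with a dye term for each group, 186 with the mutant in Cy3 only, 28 in Cy5 only, 15 at an adjusted p under 0.01, and 16 to 66 with 1 array left out. The 78 lower genes became 166 with a dye term for each group, 360 in Cy3 only, 46 at an adjusted p under 0.01, and 48 to 104 with 1 array left out. With the array number as a replicate block, 15 were higher and 46 lower, 59 of them among the 123.

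Of the 15 outermost genes, the 30 higher became 50 with a dye term for each group, 48 in Cy3 only, 18 in Cy5 only and 11 with the replicate block. They became 14 to 34 with 1 array left out. Without the COS, PAU, DAN, TIR, YRF1, FLO, THI5 and HXT families they became 19, and any other similar genes near the ends were kept. The 11 lower became 19 with a dye term for each group, 24 in Cy3 only, 7 with the replicate block, 2 within the 5 outermost genes and 8 to 11 with 1 array left out. In Cy5 only, 4 pheromone response genes were lower, against 7, and 4 COS genes higher, against 7. The COS count was 2 with the replicate block and 4 to 6 with 1 array left out. The counts of 6 a-specific and 9 haploid-specific genes stayed within 1.5 times in each setting run. The cause of these changes was not tested. The block uses up degrees of freedom, and each orientation alone leaves 2 arrays against 2. In simulation 1.5-fold differences were called in 33.8% of cases. That share need not hold for these data, where the dye effect differed between the groups, and true differences of that size may be missed.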

Other observations

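Several further lower genes, chosen after their values were seen, lay above wild type in set2∆ and below it in set2∆sir4∆. The cell wall mannoprotein gene TIP1 stood at -0.51, -0.23, -0.37 and -0.75 in set2∆sir4∆, against 0.80, 1.28, 0.25 and 1.19 in set2∆ (difference -1.34 ± 0.22). MOT1, a remover of TBP from promoters, had a mean of -0.33 in set2∆sir4∆ and 0.77 in set2∆ (difference -1.10 ± 0.17). Both were called by limma without any 1 array. The stress gene DDR48 stood at -0.34, -0.63, -0.64 and -0.31 in set2∆sir4∆, against 1.38, 1.68, -0.20 and 0.22 in set2∆, where the Cy3 arrays lay above the Cy5 arrays. Its difference of -1.25 ± 0.23 was -1.85 within Cy3 and -0.65 within Cy5, and the call was kept in 4 of the 8 fits that left out 1 array (lost without set2∆ array 1 or 4 and set2∆sir4∆ array 1 or 4, adjusted p up to 0.0709).

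Away from chromosome ends, 13 of the 43 higher genes with a place were beyond the 15 outermost. YLR108C on chromosome XII stood at 1.11, 1.18, 1.04 and 0.78 in set2∆sir4∆, against 0.05, 0.12, 0.38 and 0.28 in set2∆ (difference 0.82 ± 0.12), and was called without any 1 array. The mannosyltransferase gene MNN1 on chromosome V stood at 0.59, 0.54, 0.97 and 0.68 in set2∆sir4∆, against -0.39, -0.05, 0.14 and -0.29 in set2∆ (difference 0.84 ± 0.15). Its call was lost without set2∆ array 4 or set2∆sir4∆ array 1, 3 or 4 (adjusted p up to 0.0666).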
